A study of Mus musculus with 2 samples.

Results

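The Dlk1-Dio3 imprinted locus of the mouse was defined as every row of the deposited expression table on chromosome 12 with a gene start in the 850 kb from just before Dlk1 to just after Dio3 (mm10), whatever its biotype. It held 16 of the 28839 genes of the table, of which 10 were long non-coding, 2 small RNA, 3 protein-coding and 1 a pseudogene. RNA-seq was performed on the Sv129 cell line of mouse embryonic stem cells (mESCs) grown in folate-deficiency medium (0 mg/L folate, FA0) or in control medium (4 mg/L folate, FA4). Both groups came from the same line in DMEM with 15% FBS and carried no engineered allele or further treatment in the labels, and each was 1 library, so every difference is between 2 libraries without a replicate check and no test or p-value was possible. The labels do not say for how long folate was withheld. The locus was selected with its FA0 to FA4 differences already known, so the changes of its genes describe these libraries and are not independent evidence.

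Imprinted genes are expressed from the copy inherited from one parent. In the Dlk1-Dio3 domain the maternal chromosome makes long non-coding RNAs, among them Meg3 (also called Gtl2), Rian and Mirg, with small nucleolar RNAs and a large group of microRNAs processed from them, while the paternal chromosome makes the protein-coding genes Dlk1, Rtl1 and Dio3. An intergenic region upstream of Meg3 that is methylated on the paternal chromosome controls both sides, and loss of the maternal transcripts in mouse pluripotent stem cells is known to accompany reduced developmental potential. The FPKM table does not separate the parental copies, and in a bulk culture more cells making a transcript and more RNA per cell cannot be told apart.

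The start regions of Meg3, Rian and the upstream minus-strand gene Gm34081 are shown because the sequence of the main Meg3 start differs from those of its neighbours. Each run covers 300 bases of RefSeq sequence (GRCm38.p6), 250 before and 50 after the annotated start, with capitals for matches to the cyclic AMP response element TGACGTCA, the ZFP57 recognition hexamer TGCCGC and the TATA hexamer TATAAA on either strand.
Meg3, chr12:109540746-109541045, plus strand: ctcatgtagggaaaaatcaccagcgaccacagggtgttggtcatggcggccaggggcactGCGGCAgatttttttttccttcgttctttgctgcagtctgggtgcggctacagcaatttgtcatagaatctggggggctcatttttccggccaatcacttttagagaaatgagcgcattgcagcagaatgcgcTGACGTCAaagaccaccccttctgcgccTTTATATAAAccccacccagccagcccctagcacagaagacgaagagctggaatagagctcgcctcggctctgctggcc
Rian, chr12:109603695-109603994, plus strand: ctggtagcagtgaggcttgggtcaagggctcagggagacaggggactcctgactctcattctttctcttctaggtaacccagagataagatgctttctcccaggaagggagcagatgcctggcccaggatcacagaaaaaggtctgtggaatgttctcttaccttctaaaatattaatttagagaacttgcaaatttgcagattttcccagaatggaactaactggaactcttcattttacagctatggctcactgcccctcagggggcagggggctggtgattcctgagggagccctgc
Gm34081, chr12:109540100-109540399, minus strand: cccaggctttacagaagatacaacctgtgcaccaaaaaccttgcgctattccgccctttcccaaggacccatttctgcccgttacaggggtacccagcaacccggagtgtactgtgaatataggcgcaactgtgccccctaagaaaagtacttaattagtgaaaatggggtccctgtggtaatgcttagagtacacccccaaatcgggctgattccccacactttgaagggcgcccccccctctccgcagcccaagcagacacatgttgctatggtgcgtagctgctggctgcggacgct
The Meg3 window held 13 CpG dinucleotides, 1 cyclic AMP response element 57 bases before the start, 1 ZFP57 hexamer 190 bases before it on the reverse strand, and overlapping TATA hexamers on both strands within 29 bases of the start. Of the 32851 RefSeq start windows of the same length, 1.79% held the cyclic AMP response element, 11.6% the ZFP57 hexamer and 13.6% the TATA hexamer. The Rian window held no CpG and none of these letters. RefSeq gives Gm34081 5 starts, and the one nearest to Meg3, shown here, lies 847 bases before the main Meg3 start on the opposite strand with 11 CpG and no match. It is not the start of the row measured here, whose 5′ end, at 109516740, lies farther from Meg3. At the far end of the locus the windows of Dio3os and Dio3 held 53 and 25 CpG, against a median of 7 over all windows (quartiles 3 and 20), and the Dio3 window held a TATA hexamer 31 bases before its start. Mirg had 10 CpG and Dlk1 9, with no match in either. The RefSeq start of Mirg, at 109734981, lies inside the measured Mirg row, which begins at 109729764, so its window is not the start of that row. A match is a description of letters and was not tested as a binding site, and DNA methylation of these windows was not analysed here.

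The microRNAs of the locus are shown because 2 annotated microRNA genes have rows in the table and because several others lie on the strand opposite to Rtl1. RefSeq places 61 microRNA genes in the window, 57 on the plus strand and 4 on the minus strand, with 113 mature names. Mature sequences are given 5′ to 3′ with the seed (bases 2 to 8) in capitals.
miR-1188-5p: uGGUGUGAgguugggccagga
miR-1188-3p: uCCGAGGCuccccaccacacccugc
miR-376a-5p: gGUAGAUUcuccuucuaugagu
miR-376a-3p: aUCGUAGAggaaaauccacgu
miR-431-5p: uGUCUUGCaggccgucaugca
miR-433-3p: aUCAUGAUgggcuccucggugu
miR-127-3p: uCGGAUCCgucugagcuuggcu
miR-434-3p: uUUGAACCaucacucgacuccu
miR-432: uCUUGGAGuagaucagugggcag
miR-136-5p: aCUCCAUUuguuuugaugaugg
miR-770-5p: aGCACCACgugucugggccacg
miR-370-3p: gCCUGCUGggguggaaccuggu
The Mir1188 hairpin lies in an intron of Rian, as do those of miR-341 and miR-370, with 0 bases of each in Rian exons. MiR-376a lies on the strand opposite to the table's other microRNA row, Gm25252, and miR-770 and miR-1906 lie in exons of Meg3. The hairpins of miR-431, miR-433, miR-127, miR-434, miR-432 and miR-136 lie within exons of Rtl1 on the opposite strand. Mirg spans 14 microRNA genes, and 33 lie outside the span of every other gene of the table.

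The 113 mature names carried 104 different seeds, and no seed was shared by more than 2 names. Pairs that share a seed are shown to give the extent of the likeness.
miR-379-3p: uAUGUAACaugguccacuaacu
miR-411-3p: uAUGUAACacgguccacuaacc
miR-410-5p: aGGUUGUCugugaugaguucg
miR-494-5p: aGGUUGUCcguguugucuucuc
miR-379-5p: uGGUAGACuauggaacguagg
miR-1193-5p: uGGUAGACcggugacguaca
MiR-379-3p and miR-411-3p share AUGUAAC, miR-410-5p and miR-494-5p share GGUUGUC, and miR-379-5p and miR-1193-5p share GGUAGAC. The other 6 seeds held by 2 names are not shown. The libraries were made from total RNA with the NEBNext Ultra kit, and the levels of the mature microRNAs are not analysed here. GENCODE M21 annotates 118 genes in the window, of which 16 have a row in the table. Those present were 10 of 18 long non-coding genes, 3 of 3 protein-coding genes, 1 of 3 pseudogenes and 2 of 94 small RNA genes, and the rows held none of the 23 annotated snoRNAs.

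Meg3, Rian and Mirg, the long plus-strand transcripts of the maternal side, were all more abundant in FA0. Meg3 (ENSMUSG00000021268, chr12:109541001-109571726) had 43.3 FPKM in FA0 against 14.9 FPKM in FA4. Rian (ENSMUSG00000097451, chr12:109603940-109661716), the host of the box C/D snoRNAs of the locus, had 36.4 FPKM in FA0 against 12.4 FPKM in FA4. Mirg (ENSMUSG00000097391, chr12:109729764-109749460), a microRNA host gene, had 8.18 FPKM in FA0 against 3.54 FPKM in FA4. All 3 were thus well detected in both libraries, and FA0 was the higher library for each.

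Counting error was small for these genes. Multiplying each FPKM by the merged exon length gave 13871 reads for Meg3 in FA0 and 5077 in FA4, and the FPKM ratio of FA0 over FA4 was 2.90 (95% counting interval 2.81 to 3.00). Rian had 11765 reads in FA0 and 4262 in FA4, a ratio of 2.93 (2.83 to 3.04). The intervals of Meg3 and Rian overlapped almost wholly. Mirg had 1056 reads in FA0 and 486 in FA4, a ratio of 2.31 (2.07 to 2.58), and its interval lay below both others. These intervals, from the exact Clopper-Pearson method, cover counting error only and not the spread between cultures.

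Gm34081 (ENSMUSG00000112977) was a predicted lincRNA on the minus strand at chr12:109493529-109516740, upstream of Meg3. This gene had 3.68 FPKM in FA0 and 1.08 FPKM in FA4, from 45 and 14 reads. Its ratio was 3.41 (1.84 to 6.74), an interval that holds the ratios of Meg3, Rian and Mirg. Its FA0 level was below that of Mirg.

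**Figure D1:**
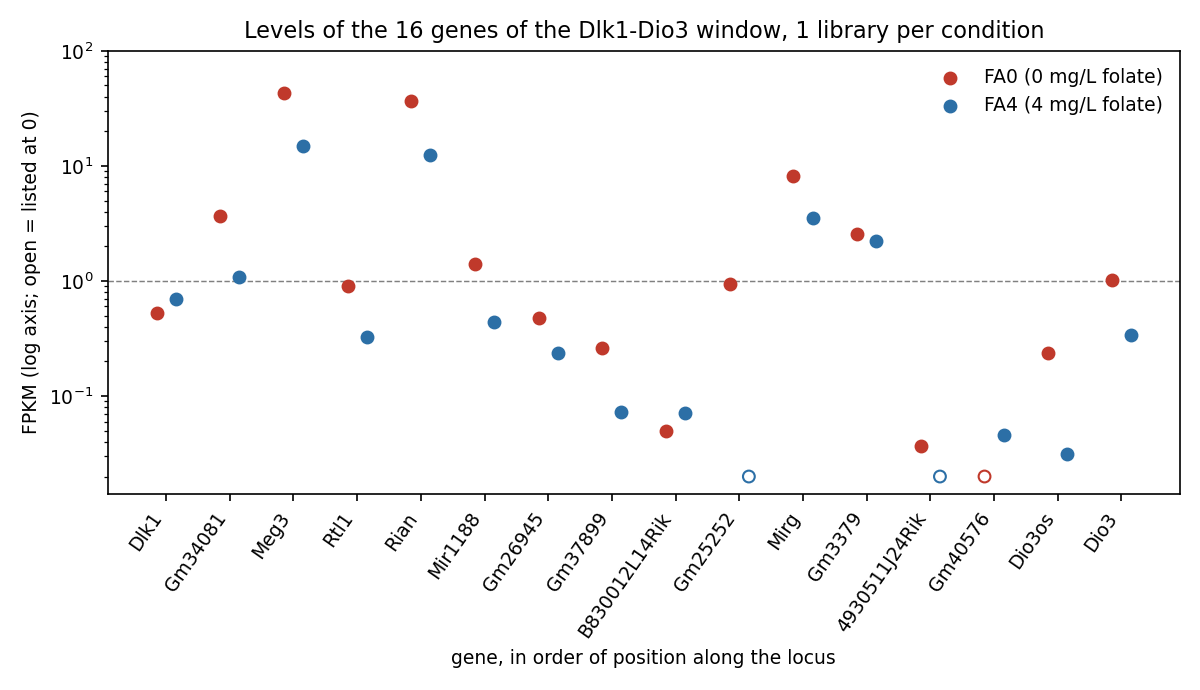
FPKM of the 16 genes of the Dlk1-Dio3 window in FA0 (red) and FA4 (blue), 1 library each, on a log axis, with genes in order of position, open circles for genes listed at 0 and a dashed line at 1 FPKM. Meg3 and Rian, at 43.3 and 36.4 FPKM in FA0, stand above the other genes in both libraries, and Dlk1, B830012L14Rik and Gm40576 are the 3 genes with the lower value in FA0.

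Of the protein-coding genes, Rtl1 and Dio3 had the higher value in FA0 and Dlk1 did not. Rtl1 (ENSMUSG00000085925, chr12:109589193-109600330, minus strand), a retrotransposon-derived gene needed in placenta and muscle, had 0.897 FPKM in FA0 and 0.326 FPKM in FA4, from 101 and 39 reads, with a ratio of 2.75 (1.88 to 4.09). Dio3 (ENSMUSG00000075707, chr12:110279068-110281097, plus strand), the deiodinase that inactivates thyroid hormone, had 1.03 FPKM in FA0 and 0.341 FPKM in FA4, from 37 and 13 reads, with a ratio of 3.02 (1.57 to 6.20). Dlk1 (ENSMUSG00000040856, chr12:109452823-109463336, plus strand), a non-canonical Notch ligand, had 0.529 FPKM in FA0 and 0.696 FPKM in FA4, from 53 and 74 reads. The Dlk1 ratio of 0.761 had an interval of 0.524 to 1.10, which holds 1, so no difference was detectable at this depth. All 3 genes lay at or below about 1 FPKM in both libraries.

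The strand of the reads limits the Rtl1 value. The sources used here do not give how strand was handled in counting, and a transcript that carries the microRNA hairpins opposite Rtl1 overlaps its exons on the plus strand. Reads of Rtl1 and of that plus-strand transcript cannot be told apart in these values. The Rtl1 ratio of 2.75 lay near those of Meg3 and Rian.

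The remaining long non-coding rows were low. Gm37899 (chr12:109668869-109677585), an unverified transcript between Rian and Mirg, had 0.259 FPKM in FA0 and 0.0732 FPKM in FA4, from 40 and 12 reads, with a ratio of 3.54 (1.82 to 7.41). Gm26945 (chr12:109640341-109642351), which lies inside the span of Rian but outside its exons, had 0.477 FPKM in FA0 and 0.238 FPKM in FA4, with a ratio of 2.01 (0.846 to 5.11). Unspliced Rian RNA cannot be told apart from Gm26945 in these values. Only Gm37899 of this pair had an interval above 1.

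Dio3os, listed in the table as AL591207.1 and running opposite to Dio3, had 7 reads in FA0 and 1 in FA4, and its ratio was 7.44 (0.955 to 335). B830012L14Rik had 4 reads in FA0 and 6 in FA4 and a ratio of 0.708 (0.147 to 2.99). 4930511J24Rik had 1 read in FA0 and 0 in FA4, and Gm40576 had 0 reads in FA0 and 1 in FA4, so no fold was taken for either. None of these 4 genes showed a difference beyond counting error.

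The small RNA rows rested on very few reads. Mir1188 (chr12:109611822-109611941) had 1.41 FPKM in FA0 and 0.443 FPKM in FA4, which is 3 reads against 1 and a ratio of 3.19 (0.256 to 167). Gm25252 (chr12:109723756-109723875), on the strand opposite to Mir376a, had 0.941 FPKM from 2 reads in FA0 and was listed at 0 in FA4. Neither row shows a difference beyond counting error, and reads of 3 or fewer in an intron of Rian or on the strand opposite to a microRNA cannot be assigned to the small RNA itself. The processed pseudogene Gm3379 (chr12:109894452-109895093) had 2.55 FPKM in FA0 and 2.24 FPKM in FA4, from 29 and 27 reads, with a ratio of 1.14 (0.652 to 2.00).

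Over the 16 genes, 7 were expressed at 1 FPKM or more in FA0, FA4 or both (Meg3, Rian, Mirg, Gm34081, Gm3379, Mir1188 and Dio3), and Mir1188 and Dio3 did so only in FA0. Change here means the log2 difference FA0 minus FA4 after 1 was added to each FPKM, a scale that understates low genes, and a change of at least 1 was counted as higher. By this measure 4 of the 7 were higher, namely Rian and Meg3 (both 1.48), Gm34081 (1.17) and Mirg (1.01, just past the limit), where 2.99% of the 14345 genes expressed by the same limit were higher. No gene of the locus was lower, where 1.32% of all expressed genes were. The 3 others had a change of 0.74 (Mir1188), 0.60 (Dio3) and 0.13 (Gm3379). The median change of the 7 was 1.01, and that of all expressed genes was 0.05.

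A pseudocount hides changes in low genes, so FPKM ratios were also read for genes having at least 10 reads over both libraries. Of the 11 such genes of the locus, 8 had a ratio of at least 2, where 11.2% of all 19463 genes did. The counting interval lay above 1 for 7 of the 11 (Gm34081, Meg3, Rtl1, Rian, Gm37899, Mirg and Dio3), where it did for 30.6% of all genes, and below 1 for none, where it did for 21.0%. The exceptions below a ratio of 2 were Dlk1, B830012L14Rik and Gm3379. Since the locus was picked on this contrast, nothing further is read from these counts.

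**Figure D2:**
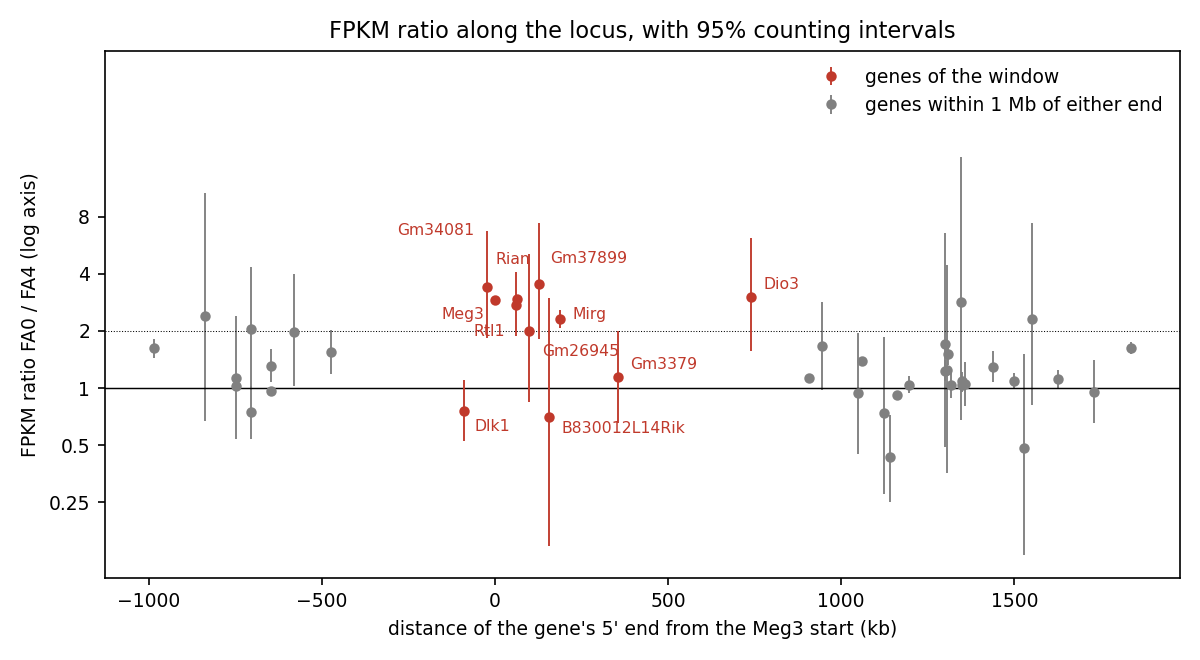
FPKM ratio of FA0 over FA4 (log axis) against the distance of each gene's 5′ end from the Meg3 start in kb, for genes with at least 10 reads over both libraries and reads in each, with 95% counting intervals, red for the window and grey for genes within 1 Mb of either end. Ratios above 2 lie from Gm34081 to Mirg, except for B830012L14Rik at 0.708, and again at Dio3, while Dlk1 lies at 0.761 and Gm3379 at 1.14.

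Along the chromosome, ratios of at least 2 ran from Gm34081 through Meg3, Rtl1 and Rian to Mirg, with B830012L14Rik (10 reads in all) as the exception, and were found again at Dio3. Dlk1, the first gene of the window, and Gm3379, between Mirg and Dio3, had ratios of 0.761 and 1.14. Within 1 Mb of either end of the window the table holds 45 genes. Of the 25 expressed, 0 were higher and 0 were lower, with a median change of 0.07. Of all expressed genes 2.99% were higher and 1.32% lower, so counts of 0 among 25 say little about the flanks. Just before the window, the postsynaptic protein gene Begain had 1.82 FPKM in FA0 and 1.17 FPKM in FA4, a ratio of 1.56 (1.19 to 2.03). Just after it, the pseudogenes Gm6988 and Gm9063 had 2 reads and 1 read in FA0 and 6 reads and 0 reads in FA4. Further on, Ppp2r5c, a regulatory subunit of protein phosphatase 2A, had 26.3 FPKM in FA0 and 23.2 FPKM in FA4, a ratio of 1.13 (1.08 to 1.19). Of the 34 flanking genes with at least 10 reads over both libraries, 4 had a ratio of at least 2, a share close to the 11.2% of all genes. The counting interval lay above 1 for 11 of the 34 and below 1 for 2, where it did for 30.6% and 21.0% of all genes.

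Among long non-coding genes, a larger share was higher in FA0 than among protein-coding genes. Of 1022 expressed long non-coding genes, 8.41% had a change of at least 1 and the median change was 0.23, and of 11840 expressed protein-coding genes 1.60% did and the median was 0.04. All 4 expressed long non-coding genes of the locus were higher. For small RNA genes, the class of Mir1188, 29.1% of 282 were higher, at very low reads. Among long non-coding genes with a mean FPKM between 5 and 50, the range of Meg3, Rian and Mirg, 11.7% of 197 were higher.

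By size of change, Rian ranked 79, Meg3 81 and Mirg 410 among all 14345 expressed genes. Rian ranked 40, Meg3 42 and Mirg 185 among the 8731 genes that reached 5 FPKM in FA0 or FA4, and 8, 9 and 30 among the 248 long non-coding genes of that level, a limit that Mirg passed only in FA0. By gain in reads, scaled to each library's total, Meg3 ranked 2, Rian 3 and Mirg 642 of all 28839 genes. That gain is not divided by gene length, so it favours long genes, and Meg3 and Rian have 18089 and 18234 merged exon bases. Meg3 ranked 1334 by FPKM in FA0 and 4063 in FA4, and among long non-coding genes 16 in FA0 and 51 in FA4. Rian ranked 19 among long non-coding genes in FA0 and 61 in FA4. Both genes thus stood among the most abundant long non-coding RNAs of the FA0 library and lower down in the FA4 library.

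**Figure D3:**
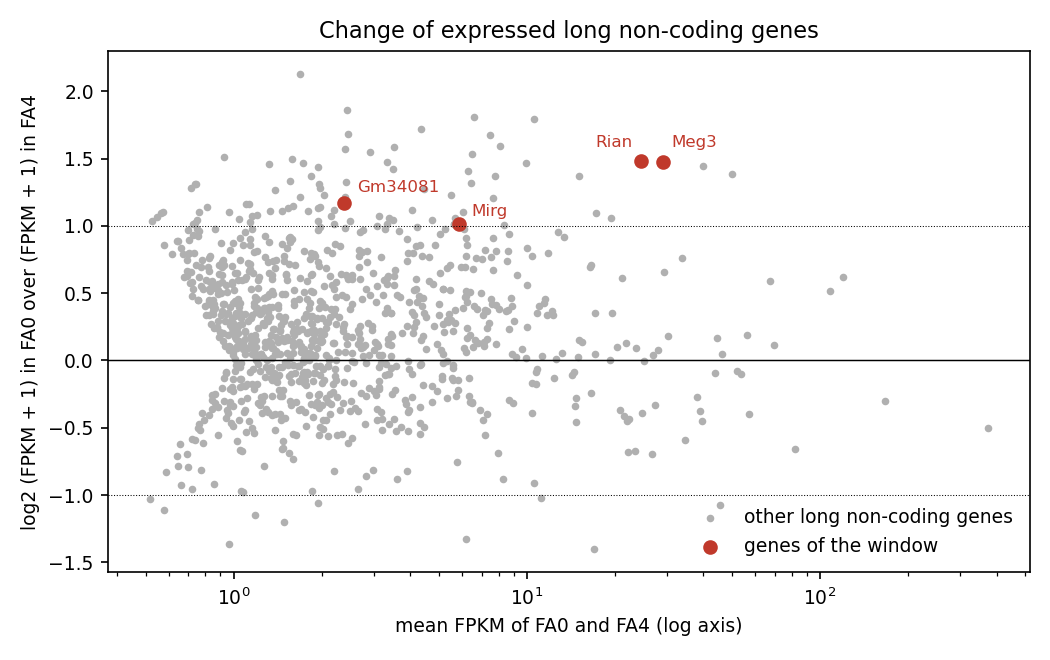
Change, as the log2 difference FA0 minus FA4 of FPKM + 1, of the 1022 expressed long non-coding genes against their mean FPKM (log axis), with the 4 of the locus in red and dotted lines at a change of 1 in size. Meg3 and Rian, both at 1.48, combine a large change with a high mean level, where most other long non-coding genes past 1 have a mean under 10 FPKM. They are not alone in this. Gm2379 (58.7 FPKM in FA0, 20.9 FPKM in FA4, change 1.45) and Gm38509 (72.9 and 27.2 FPKM, change 1.39) lie at higher means.

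In reads, Meg3, Rian and Mirg together took 0.145% of all reads in FA0 (26692 reads) and 0.0503% in FA4 (9825 reads), a ratio of 2.89 (2.82 to 2.95) after scaling to each library's total. All 16 genes together had 27031 reads in FA0 and 10022 in FA4, a ratio of 2.87 (2.80 to 2.93). Meg3 and Rian thus supplied nearly all reads of the locus in both libraries, and the total follows them.

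The genes did not all change by the same factor. Within each library, Rian stood at 84.1% of the Meg3 FPKM in FA0 (82.1 to 86.2) and at 83.3% in FA4 (79.9 to 86.8), so the balance of these 2 transcripts differed by less than counting error. Mirg stood at 18.9% of Meg3 in FA0 (17.7 to 20.1) and at 23.7% in FA4 (21.6 to 26.1), a lower share in FA0 with intervals that do not overlap. Rtl1 was at 2.07% of Meg3 in FA0 and 2.19% in FA4, and Dio3 at 2.38% in FA0 and 2.28% in FA4, both within counting error. Gm34081 was at 8.50% of Meg3 in FA0 and 7.23% in FA4. Dlk1 was at 1.22% of Meg3 in FA0 (0.915 to 1.60) and at 4.66% in FA4 (3.65 to 5.86), and Gm3379 at 5.89% in FA0 and 15.0% in FA4. The ratios of these genes to Meg3 do not depend on how the libraries are scaled to each other.

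**Figure D4:**
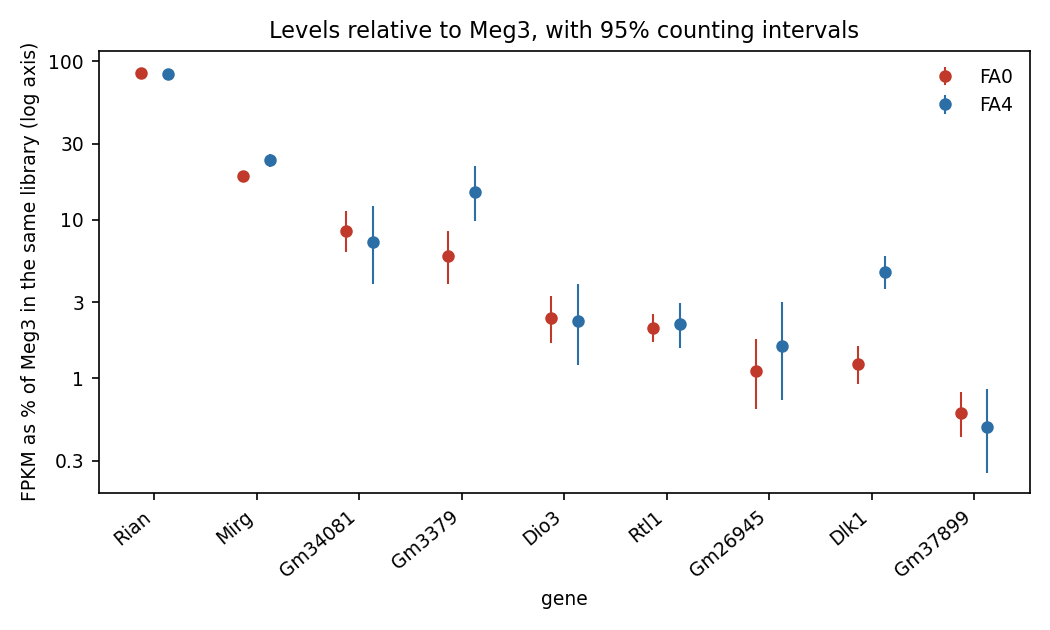
FPKM of 9 genes of the locus as a percentage of Meg3 FPKM in the same library (log axis), FA0 in red and FA4 in blue, with 95% counting intervals from the reads of the gene and of Meg3. Rian stands at 84.1% in FA0 and 83.3% in FA4, while Dlk1 stands at 1.22% in FA0 and 4.66% in FA4 with intervals that do not overlap.

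Genes that act on imprints and on the products of the locus were read from lists chosen with earlier results of these data known. Of 19 expressed genes for imprint maintenance, DNA methylation and Polycomb, 0 were higher and 0 were lower, with a median change of 0.01. Of all expressed genes 2.99% were higher and 1.32% lower, so counts of 0 say little about a list of this size. Of the 20 listed genes with at least 10 reads, 8 had a counting interval above 1 and 6 below 1. The shares over all genes with that many reads were 30.6% and 21.0%. Uhrf1, which brings the maintenance methyltransferase to replicated DNA, had 137 FPKM in FA0 and 78.6 FPKM in FA4, a change of 0.80. Dnmt3b, a de novo methyltransferase, had 24.5 FPKM in FA0 and 15.0 FPKM in FA4, a change of 0.67. The paper reports the opposite direction for Dnmt3b mRNA by quantitative PCR, lower in folate-deficient mESCs. By the same method it reports higher mRNA of Dnmt1 and the dioxygenases Tet1 and Tet2, and lower Dnmt3a and Tet3. Here Tet2, at a ratio of 0.751 (0.720 to 0.784), and Tet3, at 1.34 (1.19 to 1.51), also went the opposite way. Tet1, at 0.995 (0.963 to 1.03), showed no difference beyond counting error. Dnmt1, at 1.10 (1.06 to 1.14), and Dnmt3a, at 0.881 (0.815 to 0.953), went the same way as by quantitative PCR. Zfp57, the zinc finger protein that binds the methylated TGCCGC hexamer at imprinted control regions, had 126 FPKM in FA0 and 163 FPKM in FA4, a change of -0.37. Other imprint maintenance genes of the list went either way. Setdb1 had 33.3 FPKM in FA0 and 22.1 FPKM in FA4, a change of 0.57. Zfp445 had a change of 0.21 and Trim28 one of -0.08. These stayed short of the 2-fold limit in either direction.

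Of 9 expressed genes of microRNA processing, 1 was higher (11.1%, against 2.99% of all expressed genes) and 0 were lower (against 1.32%). Their median change was 0.15. Ago2, the Argonaute protein that cleaves targets, had 27.0 FPKM in FA0 and 12.4 FPKM in FA4, a change of 1.06. Dgcr8 and Drosha, the partners that cut hairpins from host transcripts in the nucleus, had changes of 0.71 and 0.56. Tarbp2 and Prkra had changes of -0.32 and -0.23, and Dicer1 and Xpo5 of 0.03 and 0.04. Of the 10 listed genes, all with at least 10 reads, 6 had a counting interval above 1 and 1 (Tarbp2) below 1. The shares over all genes with that many reads were 30.6% and 21.0%. Of the 4 proteins of the box C/D snoRNP, which binds snoRNAs of the Rian kind, 0 were higher and 0 were lower. With 2.99% and 1.32% of all expressed genes so called, these counts say little about 4 genes. The median change of the 4 was -0.11, with a counting interval above 1 for 1 of them and below 1 for 3.

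Imprinted genes of other loci were read to see whether they moved as the Dlk1-Dio3 genes did. Of 13 expressed genes (18 of 20 listed had a row) that are maternally expressed elsewhere, 0 were higher and 1 was lower (7.69%, against 1.32% of all expressed genes), with a median change of -0.05. The one lower was H19, a long non-coding RNA controlled by a paternally methylated region as Meg3 is, with 8.89 FPKM in FA0 and 25.1 FPKM in FA4, a change of -1.40. Of 16 expressed genes (24 of 25 listed had a row) that are paternally expressed elsewhere, 1 was higher (6.25%, against 2.99%) and 0 were lower, with a median change of -0.02. The one higher was Peg10, a retrotransposon-derived gene like Rtl1, with 66.6 FPKM in FA0 and 31.3 FPKM in FA4, a change of 1.06. Meg3 and H19 thus stood on opposite sides of 0.

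**Figure D5:**
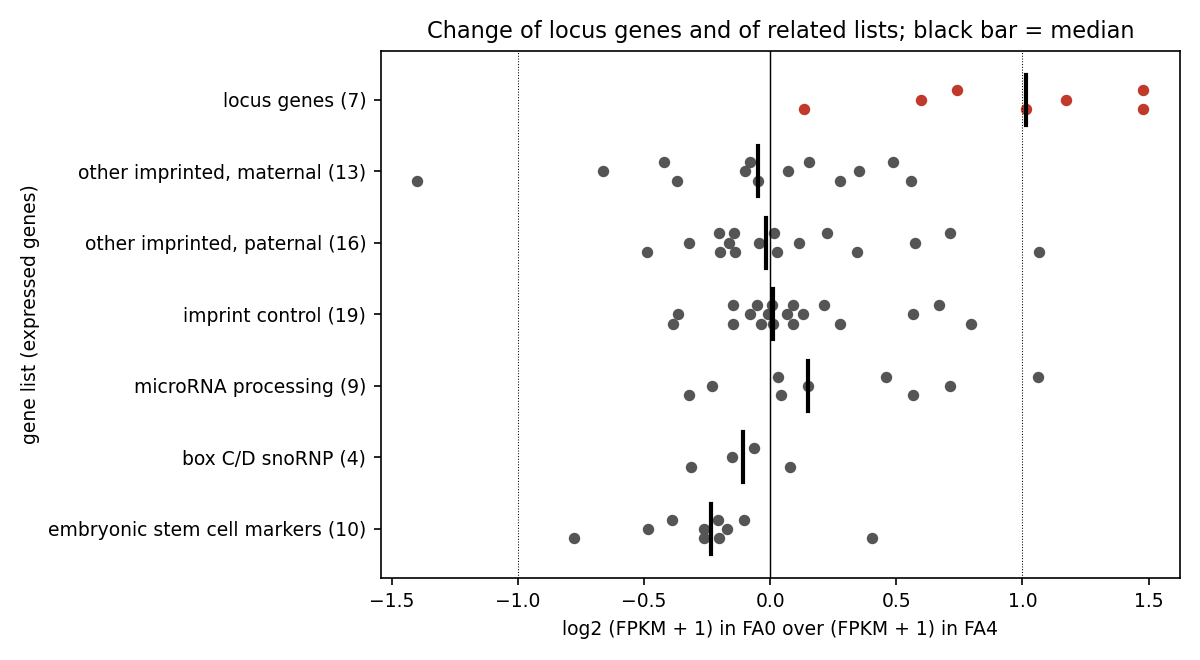
Change, as the log2 difference FA0 minus FA4 of FPKM + 1, of the expressed genes of the locus (red, top row) and of 6 other gene lists (grey), with the number of expressed genes in brackets, a black bar at each median and dotted lines at a change of 1 in size. The locus median is 1.01, and the medians of the other lists lie between -0.24 and 0.15.

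The cell type and its possible admixtures were checked by markers. All 10 embryonic stem cell markers were expressed, with a median change of -0.24. The counting interval lay below 1 for 9 of them and above 1 for 1 (Fgf4), where 21.0% and 30.6% of all genes with at least 10 reads did. These shares are not matched for depth. Each marker had at least 2541 reads in each library, so its interval is narrow and small differences already leave 1. Pou5f1, Nanog and Sox2 had 369.5, 418 and 352 FPKM in FA0 and 443, 548 and 407 FPKM in FA4. Zfp42 had 480 FPKM in FA0 and 824 FPKM in FA4 (ratio 0.583), the lowest ratio of the list, and Klf4 108 and 151 FPKM (ratio 0.712). Fibroblast feeder markers, 7 of 10 with a row, summed to 6.80 FPKM in FA0 and 6.48 FPKM in FA4, with 0 of the 7 at 0 in FA0 and 3 in FA4. Thy1 and Pdgfrb made up most of these sums. Of the 5 others, Postn had 9 reads in FA0 and 0 in FA4, Col1a1 had 35 and 25, Col1a2 had 6 and 12, and Col3a1 and Lum each had 1 and 0. Primitive endoderm markers (8 of 8 with a row) summed to 4.06 FPKM in FA0 and 7.36 FPKM in FA4, and trophoblast markers (8 of 8) to 24.0 and 25.4 FPKM in FA0 and FA4. Mesoderm markers (6 of 6) summed to 3.01 FPKM in FA0 and 2.69 FPKM in FA4, and neural markers (6 of 6) to 43.2 FPKM in FA0 and 45.7 FPKM in FA4, most of it Tubb3. Single markers of these lists went either way beyond counting error. The mesoderm marker Kdr had 0.744 FPKM in FA0 and 0.265 FPKM in FA4 (ratio 2.81, 1.98 to 4.05), and the neural marker Pax6 66 reads in FA0 and 33 in FA4 (ratio 2.12, 1.38 to 3.33). The endoderm marker Gata6 had 0.778 FPKM in FA0 and 2.58 FPKM in FA4 (ratio 0.302, 0.237 to 0.384). Of the 8 primitive endoderm markers, 6 had a counting interval below 1 and 0 above 1. The part of these cell types in the locus values was not tested. The reads over all genes summed to 18367753 in FA0 and 19534483 in FA4.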

How the data were processed

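RNA-seq of Sv129 mESCs gave 1 library each for FA0 and FA4. The authors deposited FPKM for Ensembl genes on mm10. Tools named by the submitters' processing notes are StringTie 1.3.3b, HISAT2 2.1.0 and DESeq 1.28.0, and limma and Tophat also appear in the paper's methods. The sources used here do not give how strand and multi-mapped reads were handled.

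The members and the gene lists were chosen with earlier results of these data known. Genes were described where they had a row in the window, and list genes were named where they passed 2-fold or bear on imprinting or on small RNA processing. Reads were recovered as FPKM times the merged exon length in GENCODE M21 (same build, 39 genes without a length). The step of 1 read gave scaling totals of 17704560 in FA0 and 18807176 in FA4, which are below the summed reads of 18367753 and 19534483 for a reason that was not tested, and 98.1% of values up to 20 reads in FA0 and 97.9% in FA4 fell within 0.05 of a whole number. Clopper-Pearson intervals at 95% were taken for ratios of reads. A pseudocount of 1 and a minimum FPKM of 1 were used. Sequences and hairpin positions came from RefSeq (GRCm38.p6), with 61 microRNA genes matched by position and start windows matched by symbol. Scripts (Python 3.11.15, pandas 2.3.3, numpy 2.4.6, scipy 1.17.1) were tested on simulated data. Alternatives were other pseudocounts, minima and scalings, and subsets of the locus.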

Additional observations from a re-analysis of the deposited data

How the results depend on the processing

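No gene of the locus was at least 2-fold lower under any alternative run. The count of 4 higher genes became 7 after rescaling to TPM, which lowers both the limit of 1 and the weight of the pseudocount, and 7 when a counting interval above 1 was asked for instead. It ranged from 3 to 7 over all alternatives. The median change of the expressed genes, 1.01, became 0.39 with no minimum FPKM, which takes in the 9 other genes. The median of the long non-coding genes, 1.32, became 1.54 with a pseudocount of 0.1, 1.58 after rescaling to TPM and 0.26 with no minimum. The median of the expressed protein-coding genes, which is Dio3 alone, was 0.60 and became 1.36 with a pseudocount of 0.1. The change stayed between 1.48 and 1.60 for Meg3, 1.48 and 1.61 for Rian, 1.01 and 1.21 for Mirg and -0.34 and -0.15 for Dlk1. It ranged from 0.52 to 1.23 for Rtl1 and from 0.60 to 1.36 for Dio3, both highest with a pseudocount of 0.1. Rescaling FA0 by the median ratio of 7744 genes (0.994) changed no count. A minimum FPKM of 5 left no small RNA or protein-coding gene, removal of genes of at most 300 exon bases or inside a longer gene left no expressed small RNA, and the plus strand from Meg3 to Mirg holds no protein-coding gene, so these gave no value. No paired analysis was possible because each condition is 1 library, and for the same reason no replicate could be left out. Depth limits Gm26945, Dio3os, B830012L14Rik and Mir1188, since their counting intervals hold both 1 and the Meg3 ratio of 2.90, and rows with 1 or 2 reads give no fold. The Dlk1 interval of 0.524 to 1.10 holds 1 and lies below the Meg3 ratio.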
